A study of Laguncularia racemosa with 22 samples.

Results

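The lasting change in Q leaves was read from 6 of the 22 libraries of the series, the 3 of Q at 36 h and the 3 of Q at 0 h, chosen by the letter and the time in their titles. The libraries hold messenger RNA of leaves of *Laguncularia racemosa*, the white mangrove, from wild-type seedlings 8 weeks old. The treatment labels of both Q groups read control, one with 36 h and one with 0 h. The treatment text that stands with every sample describes seedlings held at 0 °C and, in a last group, returned to days of 30 °C and nights of 28 °C, with no word on which of these the Q seedlings went through. The leaves set beside them carry the letter P: 2 libraries at 36 h, labelled freezing temperature for 12 h with 24 h of recovery, and 3 at 0 h, labelled freezing temperature. Seeds came from 2 places, and the labels tie neither letter to a place. Day and night lasted 16 h and 8 h. If the labels are hours elapsed, leaves at 36 h and at 0 h stood 12 h apart in the daily cycle, so time of day, time since the start and any treatment cannot be told apart here. Leaves at 12 h and at 36 h would then share a time of day.

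Leaf transcripts follow the day. The circadian clock and light together set when many leaf genes are transcribed, and genes of photosynthesis and of starch use peak at different times of the daily cycle. Low temperature is known in Arabidopsis to switch on CBF transcription factors and the cold-responsive genes they control, and many such transcripts fall again when plants are rewarmed. The white mangrove is a tropical tree of tidal shores in which chilling limits the range. The gene IDs come from a de novo assembly made with Trinity and the files do not pair them with names, so no function is given to a gene below, the leaf label was not checked against leaf markers, and no sequence is shown.

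Total counts were 14921916 to 17125692 in the 3 libraries of Q at 36 h and 17193717 to 17237924 in those of Q at 0 h. At this depth 1 CPM (counts scaled to a common library size) stands for 14.9 to 17.1 counts at 36 h and 17.2 counts at 0 h. Pairs of libraries of the same time correlated at a Pearson r of 0.967 to 0.972 over the log2 CPM of 21694 genes at 36 h, and of 0.967 to 0.972 at 0 h. Pairs of 1 library from each time correlated at 0.915 to 0.932. These are correlations across genes, which are not independent replicates. The labels speak of RNA taken plant by plant and do not say that each library is a separate plant, so a p-value here covers the spread from library to library, which may be technical.

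The leaves at 36 h differed from those at 0 h in a large part of the transcripts, in both directions. Of 21694 genes tested, 3064 were higher at 36 h and 3310 lower, at an adjusted p under 0.05 in edgeR's quasi-likelihood test. These calls are 29.4% of the genes tested, 14.1% higher and 15.3% lower. The median log2 change was 1.26 among the genes called higher and -0.92 among those called lower, and these medians were close in size among genes with similar reads, as given below by class of reads. At least 4-fold changes were reached by 937 genes higher at 36 h, 4.32% of the genes tested, and by 462 lower, 2.13%. Of these, 518 rises and 120 falls were genes under 1 CPM in the P libraries of 0 h, and the remaining genes split into 419 rises and 342 falls. Changes of 32-fold or more were reached by 109 genes higher and 61 lower. The 3 libraries of 36 h lay wholly above the 3 of 0 h in 97.4% of the genes called higher, and wholly below them in 97.2% of those called lower, which the test itself favours. Over all genes tested these shares were 21.7% and 22.7%. The median change over all genes tested was -0.0047 on the log2 scale. In whole leaves, a transcript lower at 36 h can mean fewer cells that hold it or less of it per cell, and these cannot be told apart.

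**Figure D1:**
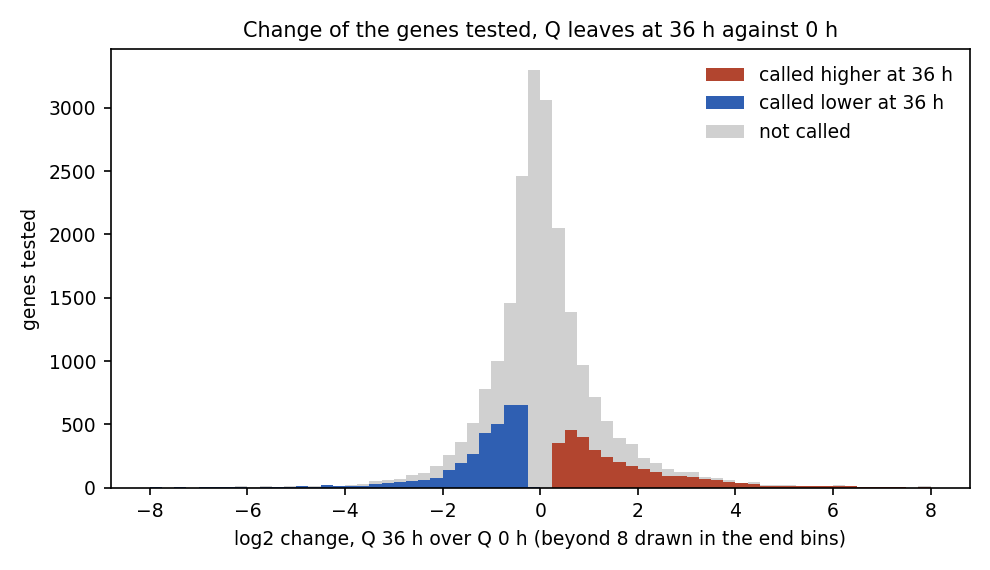
Number of genes tested (vertical axis) by log2 change of Q at 36 h over Q at 0 h (horizontal axis, bins of equal width), with called genes coloured by direction and stacked under those not called. The right flank holds 937 called genes at least 4-fold higher and the left 462 at least 4-fold lower; 518 and 120 of them were under 1 CPM in the P libraries of 0 h.

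The list of calls as a whole did not rest on a single library, but part of the calls were lost when 1 was left out. Leaving out each of the 6 libraries in turn gave 5092 to 5982 calls, against 6374 with all of them. A core of 2027 genes higher and 2085 lower was called in the same direction in every one of these 6 fits, 66.2% and 63% of the lists. In the core the median log2 change was 1.44 among the genes higher and -1.06 among the genes lower. A further 2656 genes differed by at least 2-fold in the fit without being called, and 2081 of them averaged under 1 CPM in the P libraries of 0 h, where few counts stand behind a value.

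The 4 genes named here lead among the 3490 called genes with a mean of at least 5 CPM, no overlap between the times and no other ID in their Trinity cluster. The largest rise on the log2 scale among them was that of TRINITY_DN7116_c0_g1, a transcript that appeared late. Its counts were 369, 125 and 60 in the libraries of Q at 36 h, against 0, 0 and 1 in those of Q at 0 h. The groups did not overlap, and the 36 h libraries differed among themselves, at 23.2, 7.11 and 3.96 CPM. The 554 counts of 36 h against 1 of 0 h make a ratio of 623 once scaled to library size, with an exact 95% interval of 111 to 24632 that covers counting error only. The adjusted p was 0.00027 in edgeR. Over the time series its level was 0.0187 CPM at 0 h, 0.157 CPM at 3 h, 0.0594 CPM at 12 h and 11.4 CPM at 36 h (SD 0.0325, 0.222, 0.103 and 10.3, n = 3 each). Only at 36 h did its counts go past 7 in a Q library.

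TRINITY_DN928_c0_g1 gained the most CPM of the genes that rose under these conditions. It stood at 3860, 5615 and 5505 CPM in the libraries of Q at 36 h, against 703, 1067 and 817 CPM in those of Q at 0 h. Every library of 36 h was above every library of 0 h, by a log2 change of 2.53 (standard error 0.19, adjusted p 5.08e-09 in edgeR). Unlike the first gene it was high early: its mean was 862 ± 186 CPM at 0 h, 2765 ± 87 CPM at 3 h, 4040 ± 207 CPM at 12 h and 4993 ± 983 CPM at 36 h (SD, n = 3 each). The log2 change from 12 to 36 h was 0.31 (standard error 0.18) and did not pass the test, with an adjusted p of 0.226 in edgeR.

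TRINITY_DN10002_c0_g1 had the largest fall under these conditions, to no count at all. It had 0 counts in all 3 libraries of Q at 36 h, against 2877, 1720 and 980 counts in those of Q at 0 h. With a floor of 3 counts set for the whole group, it was at least 1654-fold lower at 36 h (adjusted p 3.68e-06 in edgeR). Its loss lay between the early and the late times: it held 91.8 to 97 CPM at 3 h and 0 counts in all 3 libraries at 12 h.

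The fall of most CPM under these conditions was that of TRINITY_DN30863_c0_g1. It stood at 41.4, 53 and 51.9 CPM in the libraries of Q at 36 h, against 4462, 3928 and 6930 CPM in those of Q at 0 h. The mean at 0 h was 105 times that at 36 h, a log2 change of -6.71 (standard error 0.37, adjusted p 2.39e-10 in edgeR). The mean level was 5107 ± 1602 CPM at 0 h, 2403 ± 204 CPM at 3 h, 66.1 ± 22.9 CPM at 12 h and 48.8 ± 6.44 CPM at 36 h (SD, n = 3 each). From 12 to 36 h its log2 change was -0.44 (standard error 0.30), with an adjusted p of 0.305 in edgeR.

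**Figure D2:**
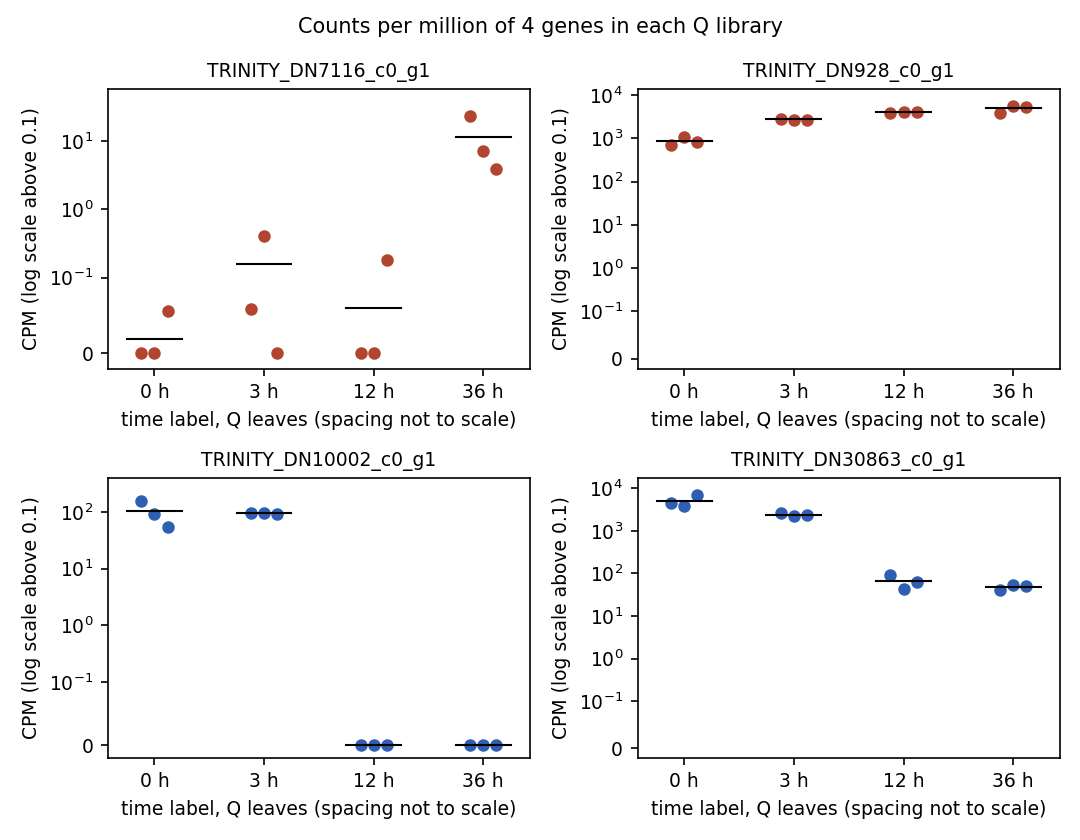
CPM (vertical axis, logarithmic above 0.1 and linear below) of 4 genes in each Q library at 4 time labels (horizontal axis, spacing not to scale), with points for libraries and bars for means, n = 3 each. TRINITY_DN7116_c0_g1 is near 0 until 36 h, TRINITY_DN928_c0_g1 is high by 3 h, and the 2 genes that fell are at or near their 36 h level by 12 h.

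P leaves moved the same 4 genes the same way, in libraries that the Q comparison does not use. TRINITY_DN7116_c0_g1 had 184 and 116 counts in P at 36 h against 0 in all 3 libraries of P at 0 h, and TRINITY_DN928_c0_g1 stood at 3758 and 5083 CPM against 997, 1275 and 1325 CPM. TRINITY_DN10002_c0_g1 had 0 counts in both libraries of P at 36 h, against 89.2 to 152 CPM in P at 0 h. TRINITY_DN30863_c0_g1 stood at 17.9 and 8.22 CPM in P at 36 h and 4797, 3617 and 4432 CPM in P at 0 h. All 4 changes in P passed edgeR's test, with adjusted p-values of 0.000316, 5.29e-07, 9.82e-06 and 6.9e-10 in the order given.

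The 20 genes with the largest rises, on the log2 scale and under the same conditions as the 4 genes, ranged from 5.15 to 8.78. Together they made up 0.278%, 0.289% and 0.287% of the 3 libraries of Q at 36 h, against 0.00429%, 0.00633% and 0.00424% of those of Q at 0 h. The libraries of a time agreed closely in this sum. Their median level was 0.849 CPM at 0 h, 2.85 CPM at 3 h, 39.9 CPM at 12 h and 50.6 CPM at 36 h, so for the middle of the set most of the climb stood at 12 h. In P, 19 of the 20 were called higher at 36 h, where 19.1% of all genes tested were. Between 3 and 12 h in Q, which uses none of the 6 libraries, 16 of the 20 rose, against 16.3% of all genes tested, and 4 were not called. None of the 20 passed the test of a different change in Q and P, where 4.52% of all genes tested did; 3 had an unadjusted p under 0.05 in edgeR and 2 were called by DESeq2.

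The 20 genes that gained the most CPM held 4.53%, 5.11% and 5.37% of the libraries of Q at 36 h, against 1.40%, 1.74% and 1.48% of those of Q at 0 h. Their log2 changes ran from 0.82 to 4.52 with a median of 1.94. They were already climbing at 3 h, with medians of 539 CPM at 0 h, 1055 CPM at 3 h, 1671 CPM at 12 h and 1822 CPM at 36 h. In P, 14 of them were called higher and none lower, where 19.1% of all genes tested were higher, with log2 changes from -0.18 to 4.18. For 8 of the 20 the change itself differed between the letters, against 4.52% of all genes tested.

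The 20 largest falls on the log2 scale included TRINITY_DN10002_c0_g1 with no count at 36 h; the other 19 kept some reads. They made up 0.0328%, 0.026% and 0.0198% of the libraries of Q at 36 h, against 1.97%, 1.22% and 2.11% of those of Q at 0 h. Their median level was 55.2 CPM at 0 h, 58.6 CPM at 3 h, 2.34 CPM at 12 h and 1.86 CPM at 36 h. At 3 h the median was close to that at 0 h, and at 12 h close to that at 36 h. In P, 19 of the 20 were called lower, where 17.7% of all genes tested were, and 19 fell between 3 and 12 h in Q, where 18.5% of all genes did. The change differed between the letters for 4 of the 20, against 4.52% of all genes tested.

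The 20 genes that lost the most CPM held 1.27%, 1.02% and 1.1% of the libraries of Q at 36 h, against 4.8%, 3.71% and 4.88% of those of Q at 0 h. Their median level was 1290 CPM at 0 h, 1329 CPM at 3 h, 457 CPM at 12 h and 407 CPM at 36 h. In P, 19 of the 20 were called lower, against 17.7% of all genes tested, and 18 of the 20 fell between 3 and 12 h in Q, against 18.5%. The change differed between the letters for 6 of the 20, against 4.52% of all genes tested. These 4 sets of 20 were picked by the change itself, so their direction in Q is a description. The choice can also favour a larger change in Q than in P, since the test of that difference uses the same Q libraries. Genes with many reads also had smaller standard errors, so 4.52% of all genes tested is not a matched share. The counts of genes that differed between the letters are therefore a description too. CPM is not scaled by gene length, and levels of different genes are not ranked by it.

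Transcripts with no count in any library of a time were described as sets. Of all 21694 genes tested, called or not, 235 had no count in Q at 0 h and 172 had none in Q at 36 h. Such genes are thus a small part of the genes tested as well as of the calls. Among genes called higher, 57 had no count at 0 h, and 50 of them had counts in every library of 36 h, with 8 to 316 counts over the 3 libraries and a median of 24. They were at least 3-fold to 118-fold higher with that same floor of 3 counts. Counts were already present in every 12 h library for 41 of the 57. In P, 41 were also called higher, against 19.1% of all genes tested, and 22 of the 57 had no count in any library of P at 0 h. Among genes called lower, 32 had no count at 36 h, against 11 to 5577 counts over the 3 libraries of 0 h with a median of 38. All 32 still had counts at 3 h, and 5 had none at 12 h. In P, 16 of the 32 were called lower, against 17.7% of all genes tested, and 18 had no count in either library of P at 36 h. The share of all genes tested with no count in those P libraries is not given here, so the 22 and the 18 are a description only. With these genes set to their bound, the medians over all called genes were 1.26 and -0.92, the same to this rounding.

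A large part of the reads changed hands. Genes called higher held 30.7%, 34.1% and 33.8% of the counts of the libraries of Q at 36 h, against 14.1%, 16.3% and 14.2% of those of Q at 0 h. Genes called lower held 16.8%, 15.1% and 15.2% at 36 h, against 32.7%, 29.4% and 33.3% at 0 h. The genes not called held 50.5% to 52.2% at 36 h and 52.4% to 54.1% at 0 h. The direction of the first 2 pairs follows from the choice of the genes, and their size is what is described. In the libraries of 3 and 12 h, which the choice did not use, genes called higher held 19.7% to 21.1% at 3 h and 31.4% to 33.1% at 12 h. Genes called lower held 26.3% to 27% at 3 h and 15.3% to 16.3% at 12 h. If 12 and 36 h share a time of day, a lasting exchange by 12 h and the daily cycle cannot be told apart.

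**Figure D3:**
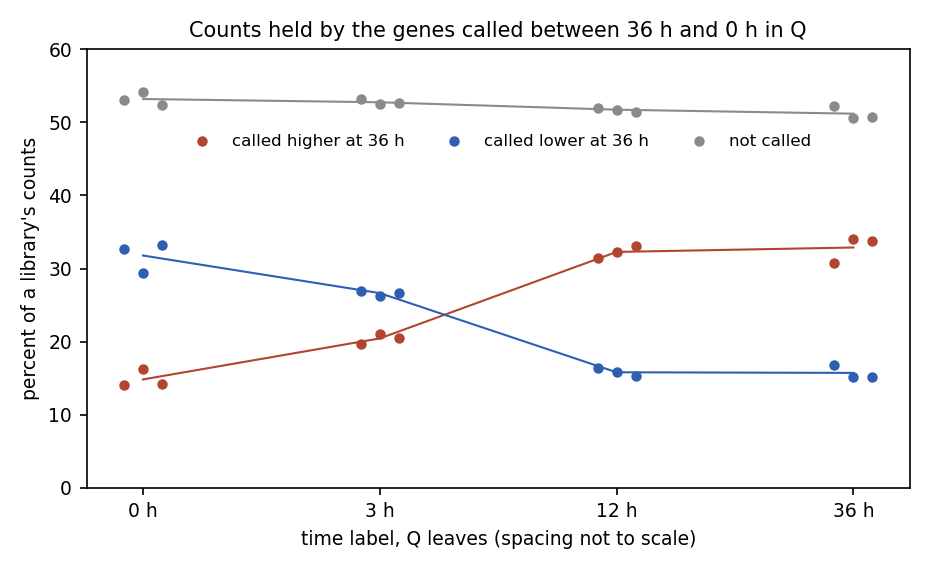
Percent of a library's counts (vertical axis) held by the genes called higher, called lower or not called between 36 h and 0 h in Q, in each Q library (points) with lines through the means, at 4 time labels (horizontal axis, spacing not to scale). By 12 h the genes called higher hold 31.4% to 33.1% of the counts, close to their 30.7% to 34.1% at 36 h.

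The split of calls by direction differed with the reads per gene. Genes were sorted by their mean in the 3 P libraries of 0 h, which the comparison does not use. A sort by reads at 0 h can still favour falls in the high classes and rises in the low ones. The classes were not sorted over all times, so how far the split depends on this was not tested. Of the 1983 genes at 100 CPM or more there, 319 were higher and 679 lower in Q at 36 h, so 50.3% were called, against 29.4% of all genes tested. Of the 8421 genes at 10 to 100 CPM, 1369 were higher and 1896 lower. Of the 5060 at 1 to 10 CPM, 761 were higher and 598 lower. Of the 6230 under 1 CPM, 615 were higher and 137 lower, and these were large changes, with medians of 3.19 and -3.11 on the log2 scale. A gene with few reads at 0 h has little room to fall and passes the filter on low counts mostly through a time at which it is higher, so the split in the lowest class is in part set by the method. In the highest class the medians were 0.77 and -0.72, and the median standard error was 0.14, against 0.86 in the lowest. In the classes between, the medians were 1.56 and -1.50 at 1 to 10 CPM and 0.83 and -0.76 at 10 to 100 CPM. At least 4-fold rises and falls numbered 518 and 120 under 1 CPM, 250 and 159 at 1 to 10 CPM, 148 and 129 at 10 to 100 CPM, and 21 and 54 at 100 CPM or more.

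**Figure D4:**
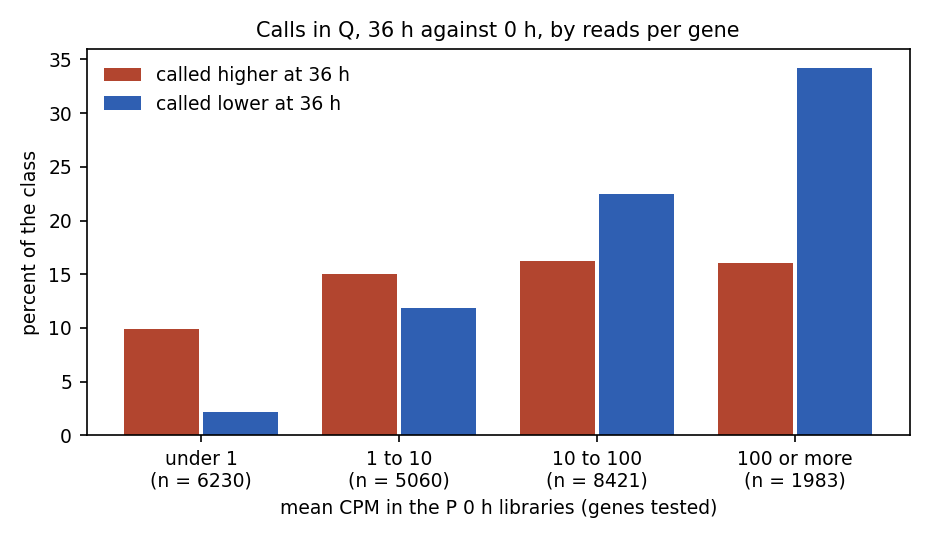
Percent of the genes tested (vertical axis, bars from 0) that were called higher or lower in Q at 36 h against 0 h, in 4 classes of mean CPM in the P libraries of 0 h (horizontal axis), with the number of genes in each class. Calls lower climb with the class, to 34.2% of the genes at 100 CPM or more, while calls higher run from 9.87% to 16.3%. Sorting by reads at 0 h can favour calls lower in the high classes and calls higher in the low ones.

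The transcripts with the most reads were described as a set, ranked in the P libraries of 0 h. Of the 10 genes with the most reads in P at 0 h, 1 was called lower in Q and none higher, with log2 changes from -0.58 to 0.62. Of the 100, 19 were higher and 34 lower, from -6.71 to 2.53, so 53% were called, against 29.4% of all genes tested, 14.1% higher and 15.3% lower. These 100 genes held 22.7%, 22.2% and 22.8% of the libraries of Q at 36 h, against 24.7%, 24.5% and 24.3% of those of Q at 0 h. The groups did not overlap, and the two-sided exact permutation p was 0.1, the smallest that 3 libraries against 3 allow (0.2 after adjustment over 4 measures of a library). The ranking used reads at 0 h, and the direction depends on it: with genes ranked over all libraries, the 100 held 1.04 percentage points more at 36 h than at 0 h. The 10 genes held 7.54% ± 0.304 at 36 h and 8.11% ± 0.515 at 0 h (SD, n = 3 each, two-sided exact permutation p 0.2). The number of genes at 1 CPM or more was 16222, 16093 and 15802 at 36 h, against 15979, 15908 and 15250 at 0 h, which overlap (two-sided exact permutation p 0.3). The genes that held 50% of the counts numbered 850, 804 and 771 at 36 h, against 862, 896 and 879 at 0 h, without overlap (two-sided exact permutation p 0.1, adjusted 0.2).

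The course before 36 h was read from medians of each comparison side by side; those with 0 h share its 3 libraries. Over the 3064 genes called higher at 36 h, the median log2 change against 0 h was 0.38 at 3 h, 1.05 at 12 h and 1.26 at 36 h. Over the 3310 called lower it was -0.18 at 3 h, -0.88 at 12 h and -0.92 at 36 h. Over all genes tested the medians were -0.02, -0.02 and -0.0047. Among the genes changed at least 4-fold, the medians were 1.01, 2.59 and 3.03 for the 937 higher and -0.52, -2.06 and -2.95 for the 462 lower. All these lists were chosen by the change at 36 h, which favours a larger value there than at 12 h.

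The step from 3 to 12 h in Q uses other libraries than the comparison of 36 h with 0 h. In that step 3541 genes rose, 16.3% of those tested, and 4006 fell, 18.5%, together 34.8%. Of the 3541, 1564 were also higher at 36 h than at 0 h, 44.2% of that list and 51% of the genes called higher at 36 h. Of the 4006, 1883 were also lower at 36 h, 47% of that list and 56.9% of the genes called lower. Some genes went against their 36 h direction on the way: 132 of the genes called higher at 36 h fell between 3 and 12 h, and 155 of those called lower rose. The remaining 1368 and 1272 were not called in that step, which does not show that they were level.

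P leaves were read over the same interval of time labels, with no library in common. Their treatment labels differ from those of Q, so P is not a repeat of Q. If the labels are hours elapsed, both letters also share the step in time of day. Of the genes called higher in Q, 67.7% were called higher in P and 0.685% lower, and of those called lower in Q, 69.2% were called lower in P and 1.45% higher. From the other side, the shared genes were 50.1% of the rises and 59.5% of the falls of P. Among all genes tested, 19.1% were higher and 17.7% lower in P, 36.8% together. The share was larger for larger rises in Q: of genes under 2-fold higher in Q 53.7% were called higher in P, of those 2- to 4-fold higher 72.6%, 4- to 8-fold higher 79.8% and 8-fold or more higher 82.4%. Falls showed no such order, with 68.7%, 72.4%, 60.5% and 67.1%. In P the median log2 change of the genes 8-fold or more higher in Q was 3.58, and 3.84 in Q; for the genes 8-fold or more lower it was -3.64 in P and -4.08 in Q. Of the core genes called in each of the 6 fits without 1 library, 77.1% of those higher and 79.3% of those lower had the same call in P.

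**Figure D5:**
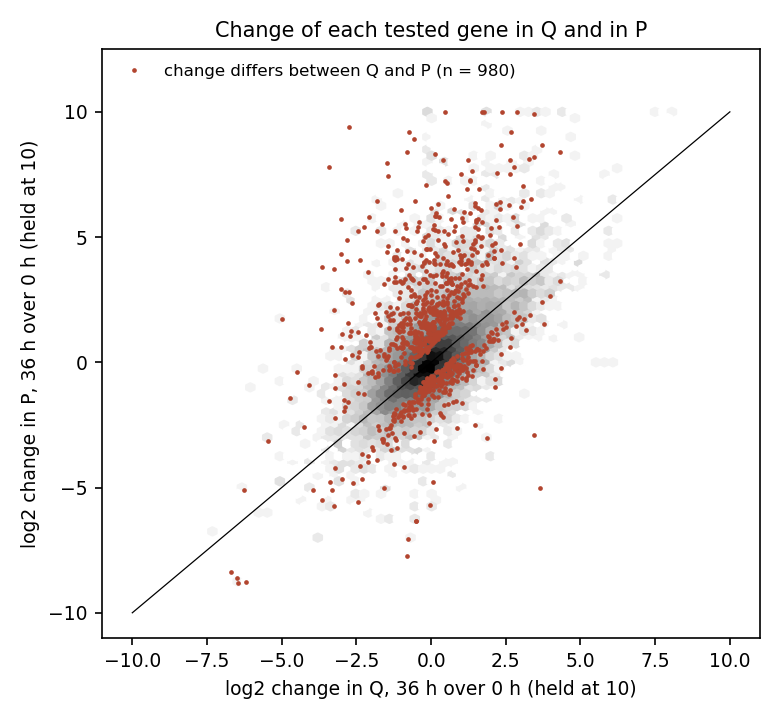
Log2 change from 0 to 36 h in Q (horizontal axis) and in P (vertical axis) of each gene tested, with density in grey on a log colour scale, the line of equal change in black and the 980 genes whose change differs between the letters in red; values beyond 10 are drawn at 10. Most red points lie above the line: 647 genes have the lower change in Q and 333 the higher.

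Whether the change itself differed between Q and P was tested as an interaction, and 980 genes passed, 4.52% of those tested. The change was higher in Q for 333 genes (1.53%) and lower in Q for 647 (2.98%). The largest class was of 390 genes called higher in P and not called in Q. Of the 2020 genes called in P as higher and not called in Q, these are the ones whose difference passed the test. On the side of Q, 968 genes were called higher in Q and not called in P; their median log2 change was 0.88 in Q and 0.28 in P, and 86 of them passed the interaction. Of the 972 called lower in Q and not called in P, with medians of -0.90 in Q and -0.32 in P, 75 passed. The 980 genes were 303 with replicate 2 of P at 36 h left out. They were 640 and 535 when replicate 2 or replicate 3 of Q at 36 h was left out, and 630 when replicate 3 of Q at 0 h was. DESeq2 called 1618.

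A small group went in opposite directions. There were 21 genes higher in Q and lower in P, with median log2 changes of 0.56 in Q and -0.56 in P, and 48 lower in Q and higher in P, with medians of -0.996 in Q and 1.22 in P. All 69 passed the interaction, which their choice favours. 2 of them are given here without their IDs and were chosen after their values were seen, as those with the largest difference of the change in each class that averaged at least 5 CPM and did not overlap in Q; their values are a description. The gene lower in Q had 0.755, 0.284 and 0.33 CPM in Q at 36 h, against 3.7, 2.06 and 3.54 CPM in Q at 0 h. In P it stood at 15.5 and 23.6 CPM at 36 h, against 4.09, 1.43 and 2.88 CPM at 0 h. At 0 h the letters overlapped and at 36 h they did not. It averaged at least 5 CPM only through P at 36 h. The gene higher in Q had 152, 164 and 153 CPM in Q at 36 h and 73.7, 82.6 and 104 CPM in Q at 0 h. In P it had 44.2 and 51.9 CPM at 36 h and 101, 188 and 138 CPM at 0 h, so its log2 change was 2.41 higher in Q than in P. Its change in Q was 0.85 on the log2 scale with an adjusted p of 0.0103 in edgeR, and that p was 0.0549 with no filter and 0.0506 when replicate 1 of Q at 0 h was left out.

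Assembled genes that share a Trinity cluster, and so part of their sequence, did not always move together. There were 2175 clusters with at least 2 IDs tested, and 30.4% of their 4943 IDs were called, against 29.4% of all genes tested. In 338 clusters at least 2 IDs were called. In 103 of these all calls were higher, in 101 all were lower, and in 134 the cluster held calls in both directions. Of all calls 48.1% were higher and 51.9% lower, so unrelated IDs would often differ in direction too. No such rate was computed, and the 134 are a description. Reads shared between such IDs can be split or lost in counting, so a pair that moves apart is uncertain. The clearest pair, chosen after its values were seen and given without IDs, had 1 member at 85.5, 106 and 116 CPM in Q at 36 h against 28, 25.3 and 27.4 CPM in Q at 0 h. The other member had 0.818, 0.91 and 0.989 CPM in Q at 36 h against 11.7, 40.9 and 19.4 CPM in Q at 0 h. Their log2 changes were 1.93 (standard error 0.18) and -4.72 (standard error 0.60). The groups of libraries did not overlap for either member.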

How the data were processed

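The authors deposited 1 table of raw counts, whole numbers per assembled gene for each of 22 libraries, matched here by letter, time and replicate number; it holds 0 other value columns. The submitters' processing notes name FastQC, HISAT2 and featureCounts; versions, settings and what the reads were aligned to are not given in the sources used here. Of the 54696 IDs, 29.5% share a Trinity cluster with another. The members and lists were chosen with earlier results of these data known.

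The test of these counts used edgeR 4.0.16, run under R 4.3.3. Filtering by filterByExpr (8 groups, minimum count 10) kept 21694 genes, which held 99.8% to 99.9% of the counts of the Q libraries at 0 h and 36 h. All 22 libraries entered 1 fit of group means with TMM scaling, the robust quasi-likelihood test and shared dispersions (square root of the common dispersion 0.264), and p-values were adjusted by Benjamini-Hochberg over all genes tested. Genes were called at an adjusted p under 0.05 with no minimum fold. A standard error is the log2 change over the square root of F. CPM uses TMM-scaled totals, and log2 CPM a prior count of 2. P at 36 h has 2 libraries, so its contrasts rest on the pooled spread. Library measures were compared by exact permutation.

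The 4 named genes are, in each direction, the called gene with the largest log2 change and the one with the largest difference in mean CPM, among 3490 with a mean of at least 5 CPM, no overlap and no other ID in their cluster. Lists of functions and cell types, set down as Arabidopsis symbols, were not used, since no ID has a name. Chi-square per gene between libraries of a Q group ran from 17.8 to 37.4, where sampling noise alone gives about 1, so each library was kept as a replicate. Simulated counts for Q at 36 h against 0 h covered 21694 genes, and the changed ones were drawn from those averaging at least 5 CPM. Of these, 95% of 100 genes changed 4-fold and 73% of 100 changed 2-fold were called in the right direction. Among the unchanged genes, 6 were called. The shares recovered do not describe genes with fewer reads. Only 200 genes were changed, while 29.4% of the genes tested were called in the data. The adjustment depends on that number, so the shares do not give the power of the real comparison. Alternatives were other scalings and filters, DESeq2 1.42.0, smaller fits, a replicate block, thinned counts, counts summed over clusters, a 2-fold minimum and leaving out each library.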

Additional observations from a re-analysis of the deposited data

Results flagged for a closer look

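The change from 0 to 36 h was tested for a difference between Q and P, and 980 genes passed edgeR's interaction at an adjusted p under 0.05, 647 with the lower change in Q and 333 with the higher. Among the 4 named genes, TRINITY_DN30863_c0_g1 passed, with a log2 difference of the change of 1.65, Q minus P (standard error 0.45, adjusted p 0.0451 in edgeR): its fall was -6.71 in Q and -8.36 in P. This call is near the threshold. It was lost in 17 of 25 alternative fits, where the adjusted p reached 0.297 (without replicate 2 of P at 36 h, log2 1.17). The difference kept its sign in all 25, from 1.17 to 2.29. Groups of 3 libraries are too small for the check of single libraries that stand apart, which was not made.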

How the results depend on the processing

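The 3 counts of genes called in Q stayed within 1.5 times of those reported under every alternative but a 2-fold minimum, which left 3346 genes, 1847 higher and 1499 lower. With all libraries compared kept and no minimum fold, the total ran from 5359 with no filter to 6840 with DESeq2, and no gene called in Q took the opposite call in any fit made per ID; directions were not compared in the fit summed over Trinity clusters. Leaving out 1 library gave 5092 to 5982 calls, 2511 to 2879 higher and 2581 to 3103 lower. The share of calls that were higher was 44.6% with library totals alone and 50.6% with RLE scaling, against 48.1%. A replicate block gave 6251 calls over all libraries and 5517 in the fit of 6. Deviations of libraries with the same number correlated at r from -0.04 to 0.02, and with different numbers from -0.07 to 0.07. So few values cannot show whether the numbers mark a shared plant, batch or day. The interaction count was 1618 with DESeq2, and 303 to 935 without 1 library. The share of the 10 and of the 100 most-read genes changed sign, to 0.32 and 1.04 percentage points higher at 36 h, when genes were ranked over all libraries, since the reported ranking used 0 h alone. Shared calls stayed within 1.5 times: 1710 to 1998 rises and 1571 to 2186 falls shared with P, and 1323 to 1562 rises and 1559 to 1870 falls shared with the step from 3 to 12 h, without 1 library. The 4 named genes kept direction and call in every fit that tested them. Genes under 1 CPM, with a median standard error of 0.86, limit what small changes can be seen.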
